A study of Mus musculus with 2 samples.

Results

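Genes of red blood cells were followed over the spots of 2 spatial transcriptomic sections of mouse fracture callus, and these were *Hbb-bs*, *Hbb-bt*, *Hba-a2*, *Alas2*, *Slc4a1* and *Car2*. They were taken by symbol and are 6 of 19430 named genes. They had been picked because globins led groups of similar spots in these same sections, so their levels are described here and support nothing by themselves. Each section held the tibial callus of 1 control mouse and 1 Nf1Postn mouse side by side, both 8-week-old female littermates, 10 days after a tibial fracture stabilized by an intramedullary pin. The control carried 1 floxed and 1 intact *Nf1* allele (Nf1[+/flox]) without Cre. The Nf1Postn mouse carried Postn-cre with 1 floxed and 1 null allele (Nf1[flox/-]), so that *Nf1*, the gene lost in neurofibromatosis type 1, was deleted in cells where the periostin promoter drives Cre, the periosteum among them. Recombination in blood cells was not measured here. The labels call the sections biological replicates, but the protocol describes paired control and Nf1Postn calluses embedded in the same block. Whether the 2 sections came from different mice is not settled by these sources, so they were treated as sections of 1 mouse per genotype. No test between genotypes was therefore made, and all intervals below are exact 95% intervals that cover counting error only.

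Hemoglobin is a tetramer of alpha and beta chains that each hold a heme, and it is made in erythroblasts of the marrow, which then expel their nucleus and enter the blood as reticulocytes that still carry globin mRNA. In bone, erythroid precursors lie in the marrow cavity, whereas blood reaches every vascular tissue and collects where vessels have broken. Globin RNA alone therefore does not tell marrow from blood. *Alas2*, the enzyme that begins heme synthesis in erythroid cells, and *Slc4a1*, the anion exchanger band 3 of the red cell membrane, are other genes of maturing erythroid cells, and *Car2*, a cytosolic carbonic anhydrase, is abundant both in red cells and in osteoclasts, which use it to make the acid that dissolves bone mineral.

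The measured transcripts are very alike between gene copies, which limits what a single globin row means. The adult beta globins *Hbb-bs* and *Hbb-bt* lie on chromosome 7 (GRCm39 positions 103475741 to 103477304 and 103461731 to 103463204, minus strand), and their coding sequences differ at 1 of 441 bases. The last 50 coding bases, in exon 3, hold that difference, printed as a capital.
*Hbb-bs*, GRCm39 chr7:103475875-103475924, minus strand: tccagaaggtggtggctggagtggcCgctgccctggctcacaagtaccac
*Hbb-bt*, GRCm39 chr7:103461866-103461915, minus strand: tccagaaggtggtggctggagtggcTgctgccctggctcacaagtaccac
Of all 50-base stretches of the transcripts, 62.0% of those of *Hbb-bs* occur unchanged in *Hbb-bt* and 91.6% of those of *Hba-a2* in its copy *Hba-a1*. *Hba-a1* has no row under that name in the counts. The library method reads pairs of short probes, whose places on these transcripts are not given in the sources used here. How the reads were split between copies is thus uncertain, and the 3 globins are also given as a sum. *Hba-a2* lies on chromosome 11 (32246489 to 32247299), *Alas2* on chromosome X (149330371 to 149353635), *Slc4a1* on chromosome 11 (102239650 to 102257030) and *Car2* on chromosome 3 (14951333 to 14965831).

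Because most of these genes were high in the same places, the 150 bases before their transcription starts are shown for the 4 genes matched in the RefSeq table (GRCm38.p6). Capitals mark letters searched on both strands, namely TATAA for the TATA box, then CCAAT and CACCC for the boxes of those names. Sites of GATA factors were searched as AGATAA or AGATAG, and with a T in first place as TGATAA or else TGATAG.
*Hbb-bs*, GRCm38.p6 chr7:103827929-103828078, minus strand: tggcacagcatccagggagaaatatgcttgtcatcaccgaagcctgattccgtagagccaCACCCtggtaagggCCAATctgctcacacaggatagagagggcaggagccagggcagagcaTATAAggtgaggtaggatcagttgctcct
*Hbb-bt*, GRCm38.p6 chr7:103813924-103814073, minus strand: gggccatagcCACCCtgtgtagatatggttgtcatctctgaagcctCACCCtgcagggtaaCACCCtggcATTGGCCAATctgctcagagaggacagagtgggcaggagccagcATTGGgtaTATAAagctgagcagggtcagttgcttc
*Hba-a2*, GRCm38.p6 chr11:32296342-32296491, plus strand: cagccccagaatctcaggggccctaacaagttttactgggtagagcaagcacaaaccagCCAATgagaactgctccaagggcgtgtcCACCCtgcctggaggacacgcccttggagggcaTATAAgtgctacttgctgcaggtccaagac
*Alas2*, GRCm38.p6 chrX:150547267-150547416, plus strand: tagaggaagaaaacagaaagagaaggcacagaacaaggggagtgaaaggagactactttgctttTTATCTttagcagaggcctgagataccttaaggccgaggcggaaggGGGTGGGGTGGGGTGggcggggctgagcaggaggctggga
The 3 globin windows held a TATA box, a CCAAT box and at least 1 CACCC box each. The *Alas2* window held neither TATAA nor CCAAT, but 3 CACCC matches and 1 GATA match, 86 to 81 bases before the start. Among 32851 windows of the same length, 14.2% held TATAA, 24.5% CCAAT and 37.4% CACCC, and 5255 windows held a GATA form. Matches whose capitals run together share no letters. These are matches of letters and not measured binding sites.

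A spot is a barcoded disc that covers several cells, and values are unique molecular identifiers (UMIs) of a gene per 1000000 UMIs of the pooled spots (CPM). Of 6380 spots under tissue, 3478 belonged to the control and 2897 to the Nf1Postn callus, and 5 had no genotype label. The sections shared 2711 barcodes, which mark positions on the array and not cells. The control spots were deeper, with a median of 7053 and 5718 UMIs per spot in sections 1 and 2, against 2030 and 3240 in the Nf1Postn callus. The totals per callus and section ran from 3462224.5 to 13562253.5 UMIs. Fewer red cells in a spot and less globin RNA per cell cannot be told apart in such data.

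All 6 genes made up a larger part of the RNA in the Nf1Postn than in the control callus, in both sections. *Hbb-bs* stood at 95.3 CPM in control section 1 and 172.5 CPM in control section 2, against 1101 and 974.9 CPM in the Nf1Postn callus, so that the sections of one genotype lay far closer to each other than to the other genotype. The pooled ratio was 7.75-fold, a log2 ratio of 2.96 (interval 2.90 to 3.01), and the section values were 11.6-fold and 5.65-fold. *Hbb-bt* rose from 7.15 and 19.1 CPM in the control to 101.7 and 114 CPM, and *Hba-a2*, the alpha chain, from 55.7 and 95.7 CPM to 583.2 and 529.4 CPM.

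The scarcer erythroid genes had CPM ratios of like size over all spots. *Alas2* had 35 and 42 UMIs in the 2 control sections (2.58 and 3.46 CPM) and 101 and 138 UMIs in the Nf1Postn sections (29.2 and 23.1 CPM), which is 8.44-fold when pooled. *Slc4a1* had 29 and 31 UMIs in the control (2.14 and 2.56 CPM) and 101 and 109 UMIs in the Nf1Postn callus (29.2 and 18.2 CPM), a pooled ratio of 9.52-fold. *Car2* differed least, with 50.8 and 36.8 CPM in the control against 119.3 and 74.2 CPM, a ratio of 2.35-fold in section 1 and 2.02-fold in section 2. All 6 genes passed 2-fold in both sections, as did 11.8% of the 17042 genes with enough UMIs to compare, but they were chosen on measured values and nothing is read from their count.

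**Figure D1:**
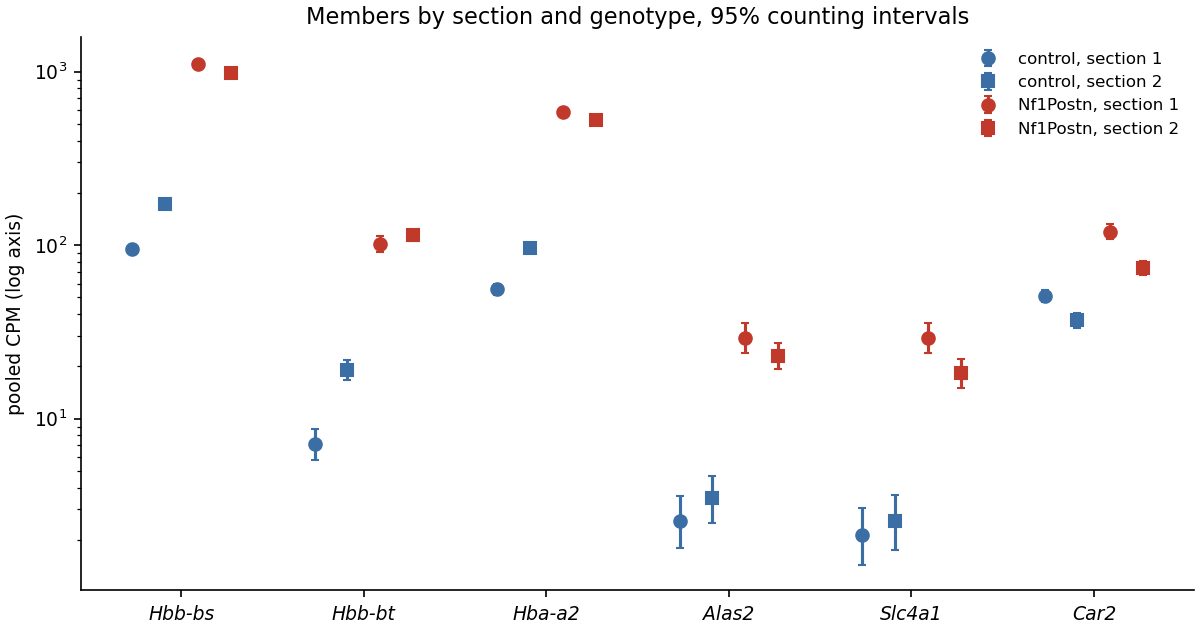
Pooled CPM (log axis) of the 6 genes in each section of the control and Nf1Postn callus, treated as 1 mouse per genotype, with bars for the exact 95% counting interval. Every Nf1Postn point lies above both control points of the same gene, with *Car2* the closest (74.2 CPM in Nf1Postn section 2 against 50.8 CPM in control section 1).

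The size of these ratios depended on how depth was treated. Counted per spot, *Hbb-bs* had 0.76 and 1.18 UMIs in the control against 2.84 and 3.75 UMIs in the Nf1Postn callus, a pooled ratio of 3.42-fold. Per spot, *Car2* no longer differed in 1 direction, with 0.405 and 0.251 UMIs in the control and 0.308 and 0.285 UMIs in the Nf1Postn callus. The share of spots with an *Hbb-bs* UMI was 43.9% and 51.4% in the control and 58.7% and 65.4% in the Nf1Postn callus. After every spot was thinned to 1000 UMIs these shares were 10.3% and 17.5% against 41.2% and 37.6%, with 45 and 83 control and 215 and 113 Nf1Postn spots too shallow to enter. Within each callus the summed globin CPM was lowest in the deepest spots. Among spots of 2000 to 4000 UMIs it was 311.8 and 824.7 CPM in the control and 1786 and 1521 CPM in the Nf1Postn callus, and among spots of at least 8000 UMIs 128.5 and 138 CPM against 382.8 and 453.7 CPM. The globin level was thus higher in Nf1Postn at both depths, while depth itself moved with the level. Among section 2 spots of 2000 to 4000 UMIs, *Hba-a2* was the only one of the 6 genes still past 2-fold (528.5 against 233.8 CPM). There *Alas2* was 20.8 against 15.9 CPM, *Slc4a1* 14.4 against 10.6 CPM and *Car2* 78.8 against 62.7 CPM, each with overlapping intervals.

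Globin RNA was uneven over the tissue, and more so in the Nf1Postn callus. The median spot held 1 globin UMI in both control sections and 2 in both Nf1Postn sections, while the highest spots held 42 and 98 against 155 and 176. Spots with at least 20 globin UMIs numbered 3 and 15 in the control and 73 and 115 in the Nf1Postn callus. The top 5% of spots held 27.8% and 36.0% of all globin UMIs in the control and 40.6% and 42.9% in the Nf1Postn callus. Most spots of both genotypes thus had little globin and a small set had much.

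**Figure D2:**
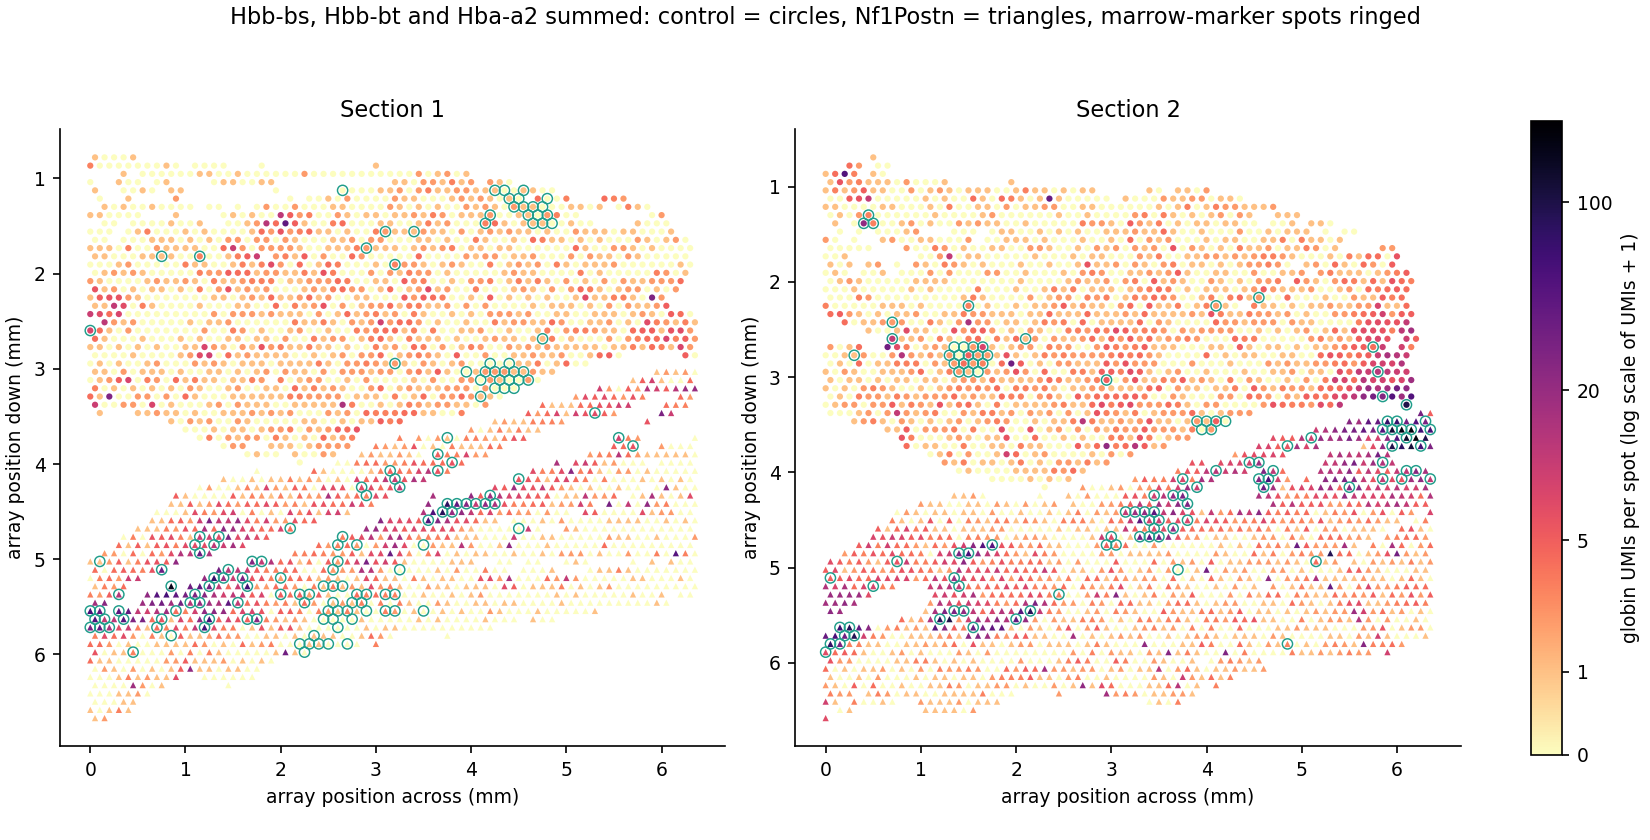
Summed UMIs of *Hbb-bs*, *Hbb-bt* and *Hba-a2* per spot (colour, log scale of UMIs + 1) at the array position of each spot in mm, with control spots as circles, Nf1Postn spots as triangles and marrow-marker spots ringed. Dark patches lie almost all on the Nf1Postn side (11 of 12 patches), some on ringed spots and some off them.

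Marrow-marker and bone-marker spots were set by genes that are not erythroid. Marrow-marker spots were the highest 10% of spots by 10 genes of granulocyte precursors (*Mpo*, *Elane*, *Camp*, *Ngp* and others) with at least 3 of their UMIs. That minimum set the class, since only 259 of 638 spots over the 10% level met it. Bone-marker spots were the highest 25% by osteoblast and osteocyte genes (*Bglap*, *Ibsp*, *Dmp1* and others). Of the 259 spots, 40 that also met the bone definition are given apart as marrow and bone, which leaves 219 marrow-marker spots. The map of globin UMIs, the distances, the patches and the alpha chain share use all 259. Of the rest, muscle-marker and cartilage-marker spots were set apart in the same way. The marrow-marker spots were not pure marrow: the summed muscle list stood at 82088 and 105381 CPM in those of the Nf1Postn callus, against 28759 and 34947 CPM in its bone-marker spots, and its part in what follows was not tested.

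In the Nf1Postn callus the globins were higher in marrow-marker than in bone-marker spots in both sections. *Hbb-bs* was 3118 CPM over 88 marrow-marker spots and 1004 CPM over 213 bone-marker spots in section 1, and 8399 CPM over 64 against 879.7 CPM over 160 in section 2, which is 3.11-fold and 9.55-fold. *Hba-a2* was 1320 and 3728 CPM in marrow-marker against 646.4 and 518.2 CPM in bone-marker spots. *Hbb-bt* was 276.5 and 1090 CPM against 81.3 and 66.9 CPM. In spots that met both definitions (16 and 9 spots) *Hbb-bs* stood at 6388 and 8717 CPM and *Hbb-bt* at 777.4 and 670.5 CPM, the last of these below the marrow-marker level.

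*Slc4a1* was also higher in marrow-marker spots in both sections, and *Alas2* clearly so in section 2. *Alas2* had 24 and 35 UMIs in marrow-marker spots (83.0 and 205.1 CPM) and 21 and 6 UMIs in bone-marker spots (45.0 and 12.5 CPM), so the section 1 ratio stayed below 2-fold with an interval that included no difference (log2 -0.02 to 1.80). The other heme genes did not share this pattern, since 0 of 11 heme and iron genes of the list passed 2-fold in both sections, and *Fech*, the last enzyme of the pathway, stood at 131.4 and 87.9 CPM in marrow-marker against 79.2 and 110.8 CPM in bone-marker spots. *Slc4a1* stood at 96.8 and 99.6 CPM against 17.1 and 20.9 CPM. In muscle-marker spots, *Alas2* was 10.7 and 18.3 CPM and *Slc4a1* 4.74 and 12.5 CPM, below the bone-marker level of *Slc4a1* in both sections and of *Alas2* in section 1. The 3 globins and *Slc4a1*, 4 of the 6 genes, were at least 2-fold higher in both sections, against 3.04% of 8869 genes, and 0 were lower, against 2.78%. With genotypes pooled *Alas2* passed as well (5 of 6), against 5.86% of 12397 genes. Of the marrow-marker spots 152 were Nf1Postn and 67 control, and of the bone-marker spots 373 and 1158. Genotype thus moved with the pooled ratio of *Alas2*, which was log2 2.68 in section 1 against 0.88 within Nf1Postn.

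The control callus differed between its sections. In section 1, *Hbb-bs* was 98.5 CPM in 42 marrow-marker spots and 97.7 CPM in 567 bone-marker spots, a log2 ratio of 0.01 (interval -0.57 to 0.55), and *Alas2* had 0 UMIs in those marrow-marker spots, which allows up to 9.85 CPM (3 UMIs). In section 2, *Hbb-bs* was 723.8 CPM in 25 marrow-marker and 133.9 CPM in 591 bone-marker spots, 5.41-fold, and *Alas2* had 3 UMIs in the marrow-marker spots. Few spots carried much of this. With the spots that were both marrow and bone included, 3 spots held 146 of the 241 globin UMIs of that section's control marrow-marker spots. The part of these 3 spots in the ratio was not tested. Muscle-marker spots of control section 2 were rich in globin as well. The 78 of them held 14.7% of its globin UMIs on 4.43% of all UMIs. None of the 5 genes with enough UMIs passed 2-fold in both control sections, against 3.89% of 11968 genes. The granulocyte list itself was as high in the control marrow-marker spots (2896 and 2444 CPM) as in those of the Nf1Postn callus (1531 and 1729 CPM) or higher. The cartilage list stood at 34109 CPM in the control section 1 class, which is therefore no clean sample of marrow either. Of its 42 spots, 15 carried the study's own tissue label of progenitor and 15 that of ossifying perichondrium. Another 6 were labelled cartilage, 3 woven bone and 1 distal cortical bone. The control section 1 ratio thus compares callus spots with granulocyte genes, and not marrow as such, with bone-marker spots.

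**Figure D3:**
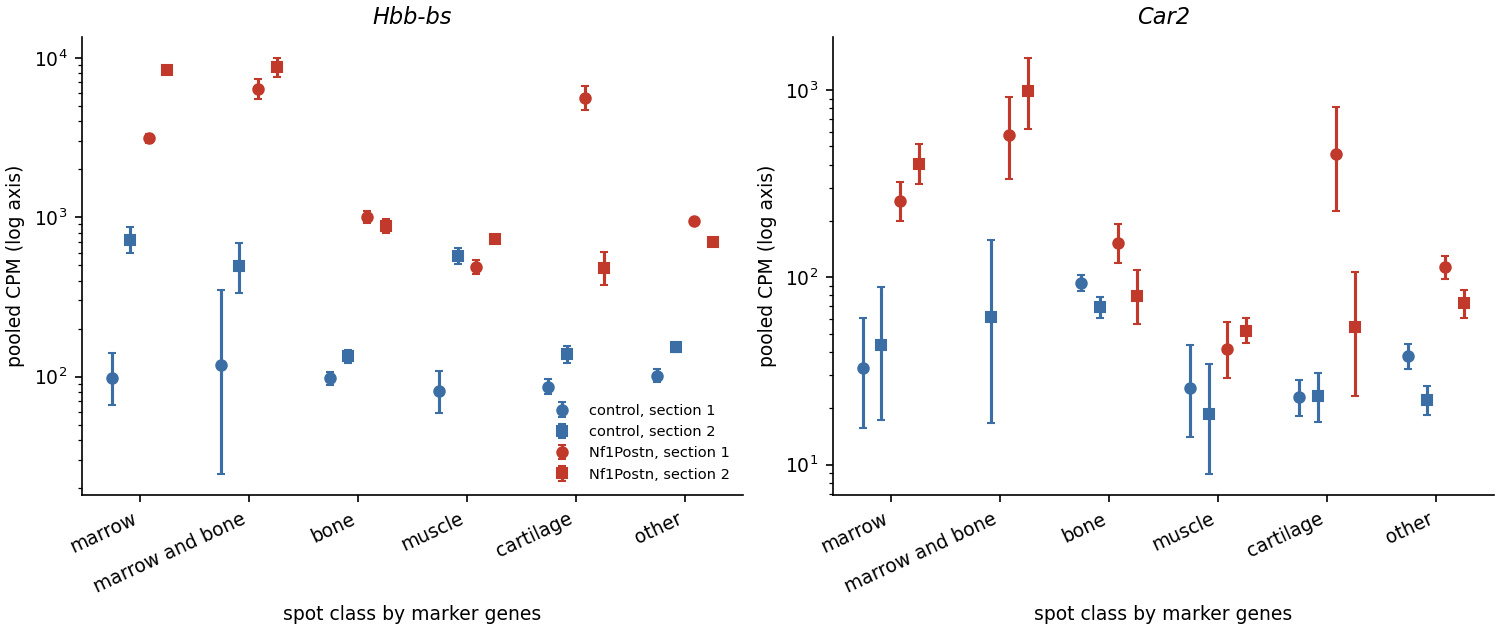
Pooled CPM (log axis) of *Hbb-bs* and *Car2* in spot classes set by marker genes, for each section and genotype, with exact 95% counting intervals. In the Nf1Postn callus *Hbb-bs* is highest in marrow-marker spots and spots that are both marrow and bone, apart from 44 shallow cartilage-marker spots of section 1. The control section 1 points of *Hbb-bs* are nearly level across classes (81.1 to 118.9 CPM, the highest from 3 UMIs in 3 spots). Those of *Car2* are not, at 93.7 CPM in bone-marker and 32.8 CPM in marrow-marker spots.

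Most globin RNA lay outside the marrow-marker spots. Those without bone markers held 22.1% and 23.3% of globin UMIs in the Nf1Postn callus, on 8.36% and 2.85% of all UMIs, and 2.28% and 5.22% in the control, on 2.25% and 1.33% of all UMIs. The spots that were both marrow and bone held another 4.51% and 3.35% in the Nf1Postn callus and 0.140% and 1.69% in the control. A shallow spot meets the minimum of 3 granulocyte UMIs less easily, so shallow marrow can be counted outside these classes. In 1 group of 10 adjacent Nf1Postn spots of section 2 the median depth was 808.2 UMIs. The granulocyte list stood at 2970 CPM there, but only 5 of those spots were in a marrow class. How much globin this places outside was not tested. Bone-marker spots held 13.1% and 7.24% of globin UMIs in the Nf1Postn callus and 32.1% and 24.2% in the control, close to or below their share of all UMIs (13.5% and 8.00% against 31.6% and 30.2%). In Nf1Postn section 2 the 864 muscle-marker spots held 42.7% of the globin UMIs on 54.8% of all UMIs. In Nf1Postn section 1 the spots of no class held 44.6% on 52.2%. In the Nf1Postn callus the marrow classes thus held more of the globin than of all RNA in both sections, and the cartilage-marker spots did so in section 1 (3.70% on 0.702%). The 44 cartilage-marker spots of Nf1Postn section 1 reached 5594 CPM of *Hbb-bs* at a median depth of 650 UMIs, while the 26 of section 2 stood at 479.9 CPM.

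Bone itself was not richer in globin than the other tissue in a way that held for both genotypes. With genotypes pooled, *Hbb-bs* was lower in bone-marker spots than in spots that were neither marrow nor bone, at a log2 ratio of -0.71. Within the Nf1Postn callus the ratio was 0.32 (0.25 and 0.30 in the sections), and within the control it was -0.22 (0.06 and -0.40). The bone-marker spots numbered 1158 in the control and 373 in the Nf1Postn callus, so genotype moved with the pooled value.

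Over bone, globins fell with distance from marrow-marker spots in 3 of the 4 callus sections. One step is about 100 micrometers, and the nearest marrow-marker spot could lie in either callus of the section. Control section 2 globins also rose toward the Nf1Postn callus, as given below, and the part of this in the fall was not tested. In Nf1Postn section 1 the summed globin level of bone-marker spots was 2050 CPM at 1 step (47 spots), 1652 CPM at 3 to 4 steps (67 spots) and 773 CPM at 5 to 8 steps (30 spots). In Nf1Postn section 2 it went from 3372 CPM at 1 step (26 spots) to 857.8 CPM at 3 to 4 steps (86 spots). The 9 bone-marker spots at 5 to 8 steps there stood at 688.7 CPM, with 22 UMIs. In control section 2 it fell from 458.6 CPM (42 spots) to 193.1 CPM at 5 to 8 steps (230 spots). Control section 1 showed no fall, with 142.2 CPM at 1 step (only 16 spots) and 183.5 CPM beyond 8 steps (114 spots). At 5 to 8 steps the Nf1Postn bone-marker spots still stood above control bone-marker spots at every distance of the same section, but in section 2 the interval (431.6 to 1043 CPM) overlapped that of the control at 1 step (375.9 to 554.2 CPM).

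**Figure D4:**
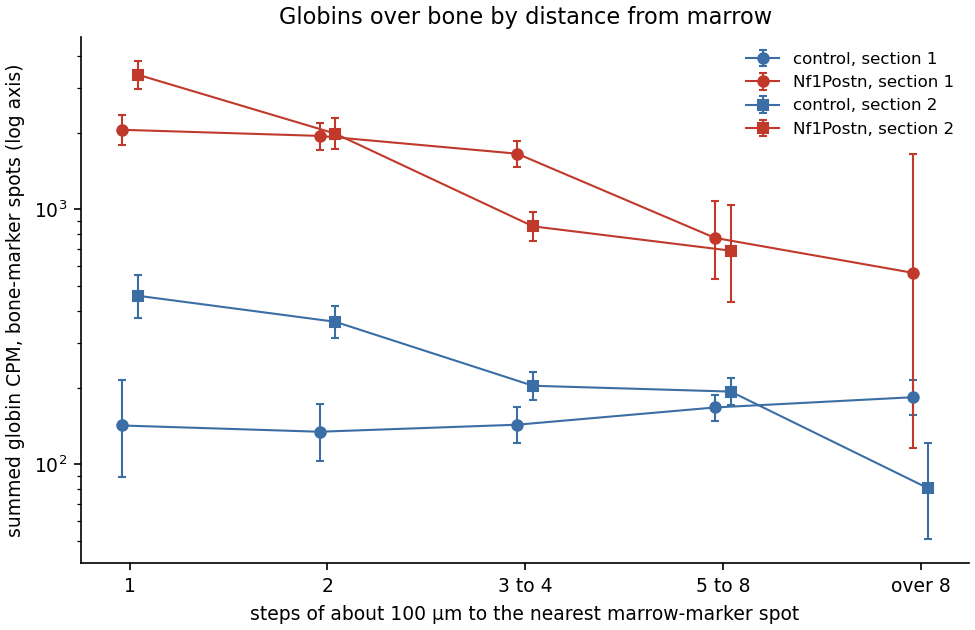
Summed globin CPM (log axis) of bone-marker spots by distance to the nearest marrow-marker spot of either genotype, in steps of about 100 micrometers, for each section and genotype, with exact 95% counting intervals. The Nf1Postn lines and the control section 2 line fall with distance (3372 to 688.7 CPM and 458.6 to 80.6 CPM in section 2), while the control section 1 line stays between 134.4 and 183.5 CPM.

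High globin formed patches. In all, 12 groups of at least 5 adjacent spots with 10 or more globin UMIs were found, 3 in section 1 (104 spots with 33.8% of its globin UMIs) and 9 in section 2 (227 spots with 49.5%). The largest of section 1 spanned 66 Nf1Postn spots with 1914 globin UMIs, and 24 of its spots were marrow-marker spots. The largest of section 2 spanned 80 Nf1Postn spots with 2904 globin UMIs, of which 57 were muscle-marker and 16 marrow-marker spots. Muscle-marker spots were set apart only among spots outside the marrow and bone classes. Over the whole 80-spot patch the granulocyte list stood at 697 CPM, where the marrow level for single spots was 542.4 CPM. That patch is thus not shown to be free of marrow. *Alas2* and *Slc4a1* together had 36.0 UMIs per 1000 globin UMIs in the 66-spot patch and 25.1 in the 80-spot patch. These patches lie in different sections, and the sections differed in the same direction. Over all spots *Alas2* and *Slc4a1* had 16.3 and 15.6 UMIs per 1000 globin UMIs in section 1, and 13.7 and 10.6 in section 2. A patch of 6 muscle-marker spots with 79 globin UMIs held 0 UMIs of either gene. Its granulocyte list stood at 72.4 CPM. At the section 2 rates, so few globin UMIs would come with very few UMIs of *Alas2* or *Slc4a1*. Nothing is therefore read from the 0.

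The only control patch lay in section 2 and faced the Nf1Postn callus. It had 27 spots with 584 globin UMIs, 15 of them muscle-marker spots, next to the 80-spot Nf1Postn patch. Control spots of section 2 within 4 steps of the Nf1Postn callus stood at 908.8 globin CPM, against 148.1 CPM beyond 16 steps. In section 1 the same distances gave 242.8 and 135.9 CPM. The position of this patch at the border moved with the higher control level of section 2, and its part in the section difference was not tested. Without control spots within 8 steps of the Nf1Postn callus, the pooled log2 ratio of *Hbb-bs*, Nf1Postn over control, was 3.23.

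In control section 1, 1344 spots also carried a tissue label of the study, joined by barcode. Globins ran from 119.8 CPM in ossifying perichondrium to 224 CPM in distal cortical bone, with 181.4 CPM in cartilage, 178.5 CPM in the progenitor region and 147 CPM in woven bone. *Car2* varied more, with 113.8 CPM in woven bone and 68.9 CPM in distal cortical bone against 18.9 CPM in ossifying perichondrium, 19.7 CPM in cartilage and 28.5 CPM in the progenitor region. The 50 distal cortical bone spots held 26 globin and 8 *Car2* UMIs. Their median depth was 2168 UMIs, against 12382 UMIs in ossifying perichondrium. Their *Car2* interval (29.8 to 135.8 CPM) overlapped that of the progenitor region (17.8 to 43.1 CPM).

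The mix of globins differed between marrow-marker and other spots in the Nf1Postn callus. *Hba-a2* was 27.3% of the globin UMIs in marrow-marker spots of section 1 (interval 25.2 to 29.6) and 34.6% elsewhere (33.2 to 36.0). In section 2 it was 29.1% (27.3 to 30.9) against 34.0% (32.9 to 35.2). Outside marrow-marker spots the share also fell as globin rose, from 36.1% in section 1 spots with 1 to 4 globin UMIs to 32.8% in those with at least 20, and from 38.2% to 31.9% in section 2. The marrow-marker shares among spots with at least 20 globin UMIs were 26.6% and 29.0%, both below the other spots of that load, although the intervals of section 2 overlapped (27.2 to 30.9 against 30.2 to 33.7). In the control the shares were 34.6% against 35.3% in section 1 and 34.0% against 33.2% in section 2. Probe pairs set the absolute share, so it is compared between spots and not read as a chain ratio.

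Other ratios between the genes did not separate the genotypes. *Hbb-bt* was 6.98% and 9.99% of beta globin UMIs in the control and 8.45% and 10.5% in the Nf1Postn callus, so the sections differed by more than the genotypes. *Alas2* had 16.3 and 12.1 UMIs per 1000 globin UMIs in the control and 16.3 and 14.2 in the Nf1Postn callus. *Slc4a1* had 13.5 and 8.90 in the control and 16.3 and 11.3 in the Nf1Postn callus, with overlapping intervals. Between marrow-marker and bone-marker spots of the Nf1Postn callus, *Alas2* per 1000 globin UMIs was 17.6 against 26.0 in section 1 and 15.5 against 8.56 in section 2. The intervals overlapped in both sections (11.3 to 26.2 against 16.1 to 39.7, and 10.8 to 21.6 against 3.14 to 18.6). No direction is therefore read from these values.

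*Car2* was higher in osteoclast-rich spots, by more in the control than in the Nf1Postn callus. Osteoclast-rich spots were the highest 20% by genes such as *Acp5* and *Ctsk*, the acid phosphatase and the collagen-cutting protease of osteoclasts. *Car2* was 122.8 and 78.6 CPM in osteoclast-rich against 21.99 and 22.09 CPM in other control spots, 5.58-fold and 3.56-fold. In the Nf1Postn callus it was 164.1 and 80.2 CPM against 113.1 and 74.0 CPM, 1.45-fold and 1.08-fold. The section 2 value rests on 12 UMIs in 38 osteoclast-rich spots (interval 41.4 to 140 CPM), and pooled over sections the ratio was 1.62-fold (1.28 to 2.04), against 4.67-fold (4.13 to 5.28) in the control.

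Among Nf1Postn spots that were not osteoclast-rich, *Car2* rose with the globins, from 30.9 CPM in spots with no globin UMI to 43.2 CPM with 1 to 4, 135.4 CPM with 5 to 19 and 555.1 CPM with at least 20. The same bins of the control gave 20.2, 21.6, 38.0 and 56.4 CPM. The last of these rests on few spots, since only 3 and 15 control spots of sections 1 and 2 held at least 20 globin UMIs, osteoclast-rich spots included. Marrow-marker against bone-marker spots gave opposite directions by genotype. *Car2* was 255.8 and 404.4 CPM in marrow-marker against 152 and 79.4 CPM in bone-marker spots of the Nf1Postn callus, and 32.8 and 43.3 CPM against 93.7 and 69.0 CPM in the control. The control marrow-marker values rest on 10 and 7 UMIs, and the control section 2 interval included no difference (log2 -2.00 to 0.39). The difference between genotypes was not tested.

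**Figure D5:**
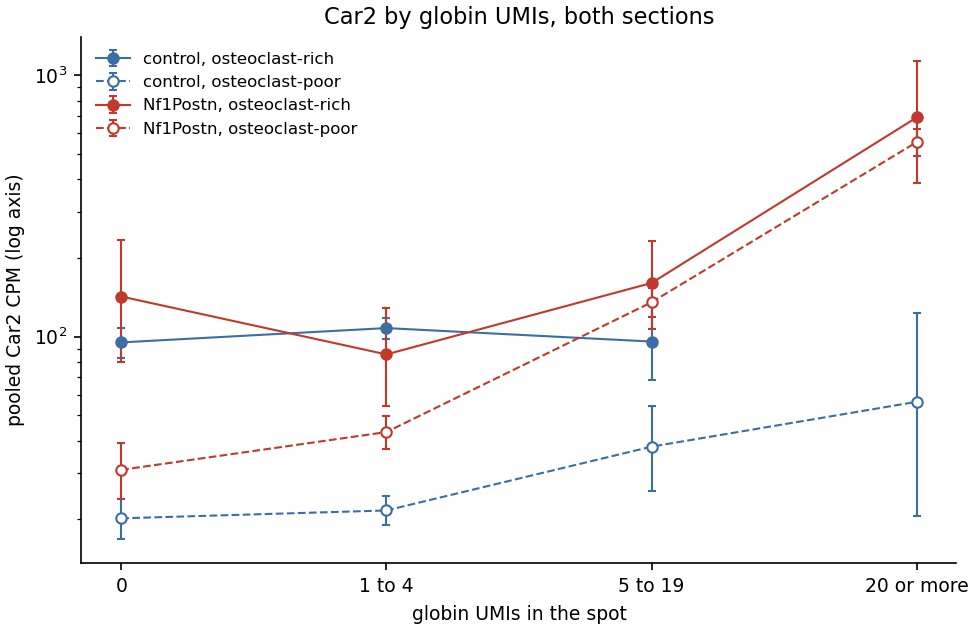
Pooled *Car2* CPM (log axis) in spots binned by their globin UMIs, for osteoclast-rich (filled) and osteoclast-poor (open) spots of each genotype, both sections together, with exact 95% counting intervals. In osteoclast-poor Nf1Postn spots *Car2* climbs from 30.9 to 555.1 CPM, while the control osteoclast-poor line ends at 56.4 CPM. That end rests on few spots, as 3 and 15 control spots of sections 1 and 2 held at least 20 globin UMIs, osteoclast-rich ones included.

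Other erythroid genes were counted over fixed lists of 54 genes in all, 51 of them with at least 20 UMIs. Of these, 17 were at least 2-fold higher in the Nf1Postn callus in both sections and 0 were lower, beside 11.8% of all genes higher and 1.25% lower. Their median log2 ratio was 0.52, against 0.09 over all genes. The counts were uneven between groups. Of the membrane and transport genes 9 of 13 were higher, among them *Kel*, a blood group antigen (23 and 35 UMIs against 8 and 9). The 9 include *Ank1* and *Sptb*, which in the control were highest in muscle-marker spots (*Ank1* 1039 and 733.7 CPM, *Sptb* 154.8 and 119.2 CPM), and all 10 genes of the muscle list were higher in the Nf1Postn callus as well (median log2 ratio 2.27). The part of muscle in this count was not tested. Of the regulators 5 of 10 were higher, which were *Gata1*, the erythroid master transcription factor, *Hemgn*, *Nfe2*, *Trim10* and *Tspo2*. Of the other late genes 3 of 13 were higher, among them *Bpgm* and *Car1*.

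None of 12 heme and iron genes passed 2-fold in both sections. *Tfrc*, the transferrin receptor, was 102.2 and 96.1 CPM in the Nf1Postn callus against 90.5 and 81.6 CPM in the control, and *Fth1*, ferritin heavy chain, 1971 and 2177 CPM against 1558 and 1765 CPM. These are genes that most cells use. The remaining globins were nearly silent, with *Hbb-y*, an embryonic beta globin, at 0 UMIs in all 4 callus sections and *Hbb-bh1* at 2 to 9. Among carbonic anhydrases 5 of 10 were higher, and these were *Car1*, *Car3*, *Car4*, *Car6* and *Car14*. *Car3* is the muscle form. *Car12* was lower.

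Within the Nf1Postn callus, 7 of 33 erythroid genes of the lists were at least 2-fold higher in marrow-marker than in bone-marker spots in both sections, beside 3.04% of all genes, and 0 were lower, beside 2.78%. Among them were *Ank1*, *Car1*, *Dmtn*, *Kel* and *Sptb*. *Kel* had 5 and 11 UMIs against 4 and 3, or 17.3 and 64.5 CPM against 8.56 and 6.27 CPM, and *Dmtn* 86.4 and 222.7 CPM against 40.7 and 37.6 CPM. *Ank1* was 463.2 and 697.5 CPM against 141.3 and 200.6 CPM, and it moved with muscle as well, at 849 and 958.8 CPM in Nf1Postn muscle-marker spots, where *Kel* had 1 and 11 UMIs. *Sptb* was likewise no lower in those muscle-marker spots (96.0 and 128.8 CPM) than in marrow-marker spots (83.0 and 93.8 CPM). Within the control, 1 of 34 genes was higher (*Ube2l6*) and 1 was lower (*Tent5c*), beside 3.89% and 3.09% of all genes.

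The genes whose pattern was most like each of the 6 were ranked over tiles of neighbouring spots of 1 genotype, 104 in section 1 and 110 in section 2, by Pearson's r of log2(CPM + 10). These tiles share libraries and depth, and r is a description. Tiles of both genotypes were ranked together, so the difference between genotypes enters r. *Hba-a2* was closest to *Hbb-bs* (0.90 and 0.97), followed by *Hbb-bt* (0.84 and 0.92) and *Bpgm* (0.69 and 0.75), which makes the red cell metabolite 2,3-bisphosphoglycerate. *Alas2* was closest to *Hbb-bt* (0.75 and 0.84), and so was *Slc4a1* (0.72 and 0.75), which was next to *Dmtn*, the membrane skeleton gene dematin (0.71 and 0.73). Within the control, *Hbb-bt* had r of 0.28 and 0.73 with *Alas2* and of -0.22 and 0.60 with *Slc4a1*. Within the Nf1Postn callus these were 0.74 and 0.86, and 0.73 and 0.78. The gene closest to *Car2* was *H1f1*, a linker histone (0.72 and 0.77). *Hbb-bs* and *Car2* had r of 0.65 and 0.88 within the Nf1Postn callus and 0.23 and 0.39 within the control. Over all tiles *Hbb-bs* also had r of -0.63 and -0.78 with the UMIs per spot, so depth moved with every one of these patterns.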

How the data were processed

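The 2 Visium sections of formalin-fixed, 14% EDTA-decalcified callus were read with probe pairs. Per the labels, the authors used Space Ranger 1.3.0 and mm39, and they deposited expected counts: UMI counts per gene and spot exported from Partek Flow, in which 10 entries that join several Ensembl identifiers hold means and need not be whole. Such entries were rounded where spots were thinned at random. One row without a gene name (5.2e-05% of UMIs) was left out. Genotypes came from the deposited spot labels. The members and gene lists were chosen with earlier results of these data known.

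UMIs were summed per section, genotype and spot class and divided by all UMIs of those spots. Classes used no erythroid gene. Genes with at least 20 UMIs, summed over the groups compared and both sections, were counted as higher or lower at 2-fold in both sections. A scarce gene can thus enter mainly through the group where it is high. Genes alike were the 5 with the highest correlation in the lower section, among genes with at least 500 UMIs, over tiles of 6 array rows by 12 columns with at least 10 spots. Named list genes are those that moved or had most UMIs (some are not reported here), while *Hbb-y* and *Hbb-bh1* were chosen after their values were seen. With the sections treated as 1 mouse per genotype no p-value was computed, and exact Poisson and binomial 95% intervals cover counting error only. On simulated counts of 12057 genes, 100% of 106 genes changed 4-fold were recovered. Those counts were Poisson totals from 1 shared profile, without variation between spots, sections or mice. They covered only genes with more UMIs than the minimum of 20 used here. A 4-fold change then passes the 2-fold level almost by construction, so this checks the calculation only. Alternatives were other class levels, thinning, single sections or genotypes, UMIs per spot, a depth window and leaving out border spots, the last 3 and the single genotypes added after seeing the data. Python 3.11.15, numpy 2.4.6, scipy 1.17.1, pandas 2.3.3 and matplotlib 3.10.9 were used.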

Additional observations from a re-analysis of the deposited data

Results flagged for a closer look

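Opposite directions in the genotypes were seen in 5 ratios in both sections, and none of these differences was tested. *Car2* in marrow-marker over bone-marker spots had log2 ratios of -1.51 and -0.67 in control sections 1 and 2, and 0.75 and 2.35 in the Nf1Postn sections. The control values rest on 10 and 7 UMIs in marrow-marker spots, and the control section 2 interval included no difference (-2.00 to 0.39). *Hba-a2* in bone-marker spots over other tissue had -0.021 and -0.22 in the control and 0.45 and 0.34 in the Nf1Postn callus. In osteoclast-rich over osteoclast-poor spots all 3 globins were higher in the control and lower in the Nf1Postn callus. *Hba-a2* had log2 ratios of 0.25 and 0.38 against -0.25 and -0.39, *Hbb-bs* 0.15 and 0.37 against -0.38 and -0.59, and *Hbb-bt* 0.020 and 0.80 against -0.52 and -1.80. The control section 1 values of *Hba-a2* over bone and of *Hbb-bt* lie close to 0. The CPM intervals of osteoclast-rich and osteoclast-poor spots overlapped for all 3 globins in control section 1. They also overlapped for *Hba-a2* in both Nf1Postn sections and for *Hbb-bt* in Nf1Postn section 1. Nf1Postn section 2 had only 38 osteoclast-rich spots, with 5 *Hbb-bt* UMIs.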

How the results depend on the processing

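Values are log2 ratios unless a share or count is named. Each call was treated as resting on 1 mouse per genotype, and depth differed between the genotypes. No paired analysis was made because no test was made and both sections were treated as coming from the same animals. The Nf1Postn over control ratio of *Hbb-bs* (2.96) was 1.78 per spot and 1.42 in spots of 2000 to 4000 UMIs, and 2.50 to 3.53 with 1 section left out. The same ratio of *Car2* turned to -0.14 per spot. Marrow over bone for *Hbb-bs* (3.73) was 2.66 with marrow at 20% and bone at 35%, 2.43 within Nf1Postn and 1.46 within the control, and 3.07 to 4.41 by section. *Car2* marrow over bone turned to -1.17 within the control. Bone over other tissue for *Hbb-bs* (-0.71) was -1.03 and -0.37 at the other class levels, 0.32 within Nf1Postn, -0.22 within the control and -0.81 to -0.51 by section. Within Nf1Postn it also turned for *Hba-a2* (0.43), *Alas2* (0.66) and *Slc4a1* (0.16). The osteoclast ratio of *Car2* (1.296) was 0.80 after thinning, 0.70 within Nf1Postn, 2.22 within the control and 0.89 to 1.54 by section. The share of globin UMIs in marrow-marker spots (17.9%) was 21.1% after thinning, 16.3% with marrow at 5% and 16.96% to 18.5% by section. The *Hbb-bt* share of beta globin (9.47%) ran from 8.08% to 10.3% by section. The count of erythroid genes higher in marrow with both genotypes pooled (13, beside 5.86% of all genes) was 7 with marrow at 20% and bone at 35%, 6 with at least 50 UMIs, 7 within Nf1Postn, 1 within the control and 9 to 12 by section. *Alas2* per globin in marrow over bone (0.06) was -0.041 and -0.086 at the other class levels, -0.13 within Nf1Postn and -0.24 to 0.50 by section. The cause was not tested in any of these. Of the alternatives of the other members, 113 moved by no more than the SD of the section values, 42 by more and 5 reversed.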

Other observations

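Genes of iron recycling by macrophages did not follow the globins. None of the 4 genes of that list was 2-fold higher or lower in both sections in the Nf1Postn over control comparison, and their median log2 ratio was -0.85, against 0.09 over all genes. *Slc40a1*, the iron exporter ferroportin, stood at 50.8 and 40.8 CPM in the Nf1Postn callus against 99.1 and 97.3 CPM in the control. Of the 6 endothelial genes none was 2-fold higher in both sections, at a median of -0.24, and of the 6 megakaryocyte and platelet genes none either, at a median of 0.67.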
